A study of Mus musculus with 8 samples.

Results

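Pericytes of the postnatal mouse cortex were taken as every cell that the authors' annotation calls a pericyte, which gave 1656 of 60989 cells in the table of single cells. They comprised 84 cells at P7 and 1572 cells at P21 (postnatal days 7 and 21), and 0 of 28537 cells at P1 carried the name. Tissue from C57BL/6 mice of wild-type genotype, taken from the somatosensory and motor cortex at P1, P7 and P21, was dissociated, and live cells were sorted as DAPI-negative and Vybrant DyeCycle Ruby-positive before droplet capture with a 10x Genomics 3′ kit. The labels' protocol text also mentions a sort of tdTomato-labelled projection neurons, but the libraries held glia and pericytes and were read here as the live sort. Each library pooled several animals, no genotype or treatment separated the ages, and the study's methods give a higher papain concentration for P21 tissue. The 8 libraries were 1 and 2 at P7, 3, 4 and 5 at P1, and 6, 7 and 8 at P21, and p-values measured only the spread between libraries. The P7 libraries share a collection day and were not shown to be separate pools, while no collection day was shared between ages, so age, day and dissociation cannot be told apart.

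Pericytes are mural cells that sit on the outer wall of capillaries, embedded in the basement membrane that they share with the endothelium. In the brain they are known for their part in forming and keeping the blood-brain barrier and in setting capillary tone. They are recruited to growing vessels by endothelial PDGF-B acting on the receptor encoded by Pdgfrb, which serves as a marker together with Rgs5, a regulator of G protein signalling, and Cspg4, which encodes the NG2 proteoglycan and is also expressed by oligodendrocyte precursors. No expression values were analysed, so these markers could not be examined and the name rests on the annotation alone. Whether other vascular cells carry the same name could not be examined either. What the table gave for each pericyte was its number of UMIs (unique molecular identifiers, counts of captured transcripts), its number of detected genes, its mitochondrial share of UMIs and its cluster.

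Pericytes made up less than 1% of sorted cells in both P7 libraries and between 8.98% and 25.7% of cells in the P21 libraries. At P7 they numbered 46 of 11310 cells in library 1 (0.407%, exact binomial 95% interval 0.298 to 0.542) and 38 of 11177 cells in library 2 (0.340%, interval 0.241 to 0.466). At P21 they numbered 257 of 2861 cells in library 6 (8.98%, interval 7.96 to 10.1), 576 of 2240 cells in library 7 (25.7%, interval 23.9 to 27.6) and 739 of 4864 cells in library 8 (15.2%, interval 14.2 to 16.2). The intervals cover counting error only. They overlapped between the P7 libraries and did not overlap among the P21 libraries, so pericyte recovery varied between P21 libraries by more than counting error. The count of 0 at P1 allows a share of up to 0.0341%, 0.0402% and 0.0431% in libraries 3, 4 and 5, by the same exact binomial intervals. These limits are for cells that carry the name after the authors removed outlier clusters at each age, and do not bound the pericytes of the tissue.

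The difference in mean share was 16.3 percentage points, and every P21 library lay above both P7 libraries. Exact permutation of the age labels (two-sided, 10 ways to call 3 of the 5 libraries P21) gave p = 0.2, and the smallest p this test allows with 2 and 3 libraries is 0.1, so no exact permutation of ages could pass 0.05. Among cells with at least 1500 genes the difference was 9.81 percentage points. Cells without a neuron name, here called non-neuronal, included any that the annotation left undetermined. They numbered 713 and 716 in libraries 1 and 2 and 2616, 2188 and 4536 in libraries 6, 7 and 8. The ages thus differed widely in how many named neurons the share was taken over. Among non-neuronal cells alone, pericytes made up 6.45% and 5.31% in libraries 1 and 2, and 9.82%, 26.3% and 16.3% in libraries 6, 7 and 8. The P7 mean was 5.88% ± 0.809 (SD, n = 2), and the P21 mean, 17.5% ± 8.31 (SD, n = 3), was 11.6 percentage points higher. The groups still did not overlap, but the nearest libraries of the 2 ages stood much closer than among all cells.

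**Figure D1:**
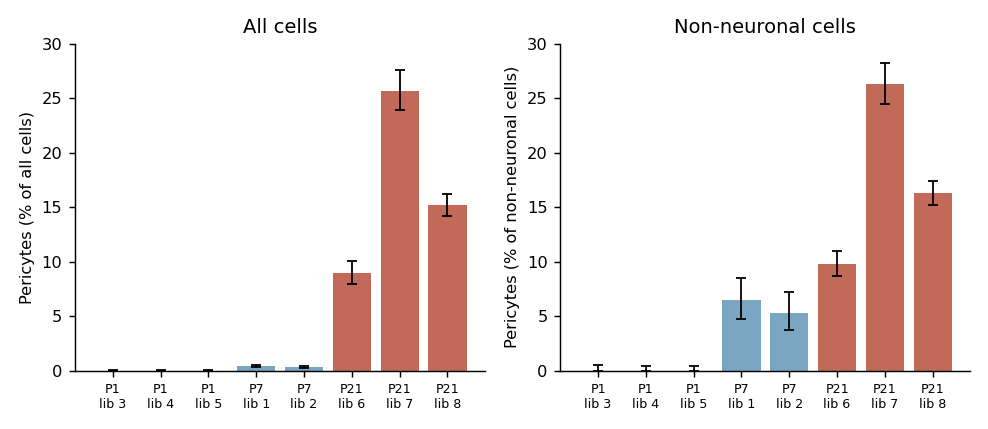
Pericyte share (percent, linear axes from 0) of all cells and of non-neuronal cells in each library, with exact binomial 95% intervals as bars and libraries grouped by age. P1 libraries sit at 0, P7 libraries at 0.407% and 0.340% of all cells, and P21 libraries spread from 8.98% to 25.7%.

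The balance of pericytes against astrocytes and microglia differed between P21 libraries as well. Pericytes per annotated astrocyte stood at 0.0824 and 0.0663 in P7 libraries 1 and 2, where 558 and 573 astrocytes were recovered. In P21 libraries 6, 7 and 8 the ratio was 5.14, 16.5 and 1.36, over 50, 35 and 542 astrocytes. Pericytes per microglial cell, over 328, 419 and 1146 microglia, were 0.784, 1.37 and 0.645, a narrower range. Library 7 had the highest ratio on both scales and library 8 the lowest of the P21 libraries. The pericyte share of all UMIs in a library was lower than the share of cells throughout, at 0.327%, 0.299%, 6.30%, 20.6% and 13.5% in libraries 1, 2, 6, 7 and 8.

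Pericytes fell into 1 of 25 clusters at P7, named P7_18, and 2 of 20 clusters at P21, named P21_3 and P21_8. Clusters were made within each age, so a P21 cluster has no named counterpart at P7. Of the pericyte barcodes, 118 (7.13%) also occurred in another library, against 7.03% of all cells, and 2 were shared among pericytes. The sources used here do not give the treatment of doublets, and doublets were not called.

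Pericytes carried fewer UMIs per cell at P21 than the deeper P7 library, but the ages overlapped. The median was 3049.5 UMIs (95% interval from order statistics 2531 to 3765) in library 1 and 4249 (2880 to 5146) in library 2. At P21 it was 2443 (2369 to 2521), 2695.5 (2648 to 2757) and 3156 (3099 to 3241) in libraries 6, 7 and 8. Library 8 lay above P7 library 1, so the groups overlapped, and the P7 medians rest on few cells. The medians averaged 3649 ± 848 UMIs (SD, n = 2) in the P7 libraries and 2765 ± 362 UMIs (SD, n = 3) in the P21 libraries. The log2 difference of -0.39 gave an exact permutation p of 0.3 (adjusted p = 0.45 over 3 measures). It was -0.15 without P7 library 2 and -0.63 without P7 library 1, so its size rests on those libraries.

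Detected genes per pericyte followed the same order of libraries. The medians were 1310.5 and 1744.5 genes in libraries 1 and 2, and 1240, 1283 and 1523 in libraries 6, 7 and 8. The ages overlapped again, with a log2 difference of -0.17 (exact permutation p = 0.5, adjusted p = 0.5). Leaving out P7 library 2 turned that difference to 0.04, so its direction rests on that library. Among pericytes with 2000 to 3000 UMIs the log2 difference in genes was 0.078, and with 3000 to 4000 UMIs it was 0.051. Each of these values had 1 P7 library and 3 P21 libraries. P7 library 2 was not in the first range, having 9 pericytes there. In that range the 15 pericytes of P7 library 1 had a median of 1204 genes at 2430 UMIs. P21 libraries 6, 7 and 8 had 1236.5, 1242 and 1337 genes at 2427, 2558 and 2604 UMIs, so UMIs were not matched. The 9 pericytes of P7 library 2 had 1323 genes at 2546 UMIs, above libraries 6 and 7 and below library 8. Whether genes differ with age at equal UMIs was thus not resolved.

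The mitochondrial share, the part of a cell's UMIs from mitochondrial transcripts, had a higher median in each P21 library than in either P7 library. Medians were 4.47% and 4.54% in libraries 1 and 2, and 4.67%, 4.99% and 5.20% in libraries 6, 7 and 8. The groups did not overlap, and the gap of 0.452 percentage points gave an exact permutation p of 0.2 (adjusted p = 0.45). The direction depended on which P21 pericytes were counted, since with the smaller P21 cluster alone the difference from P7 was -1.16 percentage points. It was 0.282 percentage points by means over cells and 0.028 with only cells under 5% kept.

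The same age contrast was fitted with limma across the 7 cell types with at least 20 cells in 2 or more libraries of each age. Of these, 5 types, pericytes among them, entered with all 5 libraries and 2 types lacked a P21 library. In this fit 57.1% of types were called for UMIs, 42.9% for genes and 57.1% for the mitochondrial share. Pericytes were not among the called types. Their log2 difference in UMIs was -0.39 ± 0.19 (SE; limma adjusted p = 0.148), that in genes -0.17 ± 0.16 (SE; limma adjusted p = 0.458), and that in the mitochondrial share 0.452 ± 0.272 percentage points (SE; limma adjusted p = 0.158). A miss of the threshold with 2 and 3 libraries does not show that the ages are alike.

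UMIs varied more among the pericytes of a P7 library than among those of a P21 library. The ratio of the upper to the lower quartile of UMIs was 1.86 and 2.18 in P7 libraries 1 and 2, against 1.32, 1.34 and 1.43 in P21 libraries 6, 7 and 8. Every P7 library was therefore wider than every P21 library. Astrocytes of the same libraries had ratios of 2.03, 2.20, 1.33, 1.45 and 1.46, with the same order of ages.

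A tail of pericytes with many UMIs accounted for part of the P7 range. UMIs per pericyte ran from 1795 to 13655 in library 1 and from 1698 to 12209 in library 2, whereas the highest P21 cells held 6130, 6959 and 10344 UMIs. Cells over 8000 UMIs numbered 5 of 46 and 4 of 38 in P7 libraries 1 and 2. In P21 libraries 6, 7 and 8 they numbered 0 of 257, 0 of 576 and 2 of 739. Astrocytes over that level numbered 90 of 1131 at P7 and 1 of 627 at P21. At the low end, cells under 1100 genes, close to the authors' minimum, made up 23.9%, 13.2%, 17.1%, 13.7% and 5.95% of pericytes in libraries 1, 2, 6, 7 and 8. Library 1 had the largest share of pericytes just above that minimum.

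**Figure D2:**
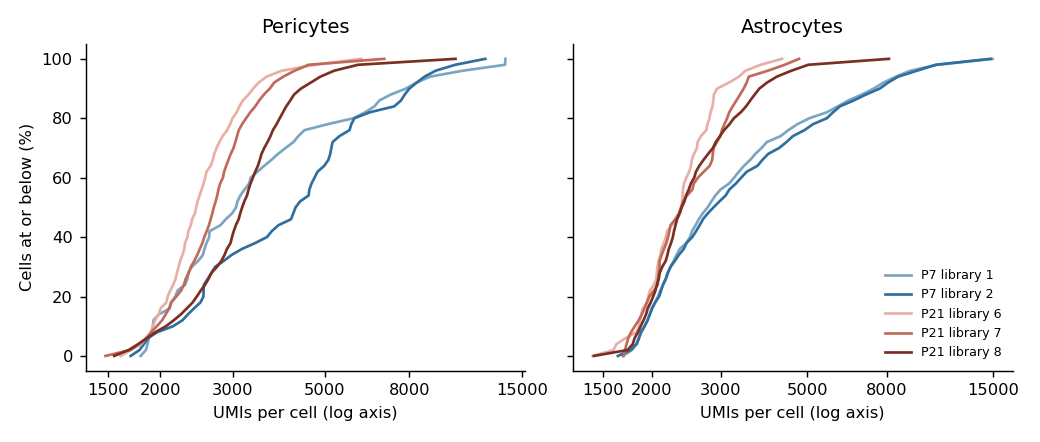
Percent of cells at or below each number of UMIs (log axis), for pericytes and for astrocytes, with 1 line per P7 and P21 library. The pericyte lines of libraries 1 and 2 rise more gradually and end at 13655 and 12209 UMIs, while the P21 lines are steeper, with quartile ratios of 1.32 to 1.43.

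Pericytes of P21 were split by the annotation into P21_3, with 1251 cells (79.6%), and P21_8, with 321 cells (20.4%). All values that follow for these clusters are descriptions, since the clusters were drawn from the same cells. P21_8 made up 13.2% (interval 9.34 to 17.99), 16.7% (13.7 to 20.0) and 25.8% (22.7 to 29.2) of pericytes in libraries 6, 7 and 8. The share in library 8 lay above those of libraries 6 and 7 beyond counting error.

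P21_8 cells held fewer UMIs and a lower mitochondrial share in every P21 library. The median of P21_3 was 2471, 2760.5 and 3286.5 UMIs in libraries 6, 7 and 8, and that of P21_8 was 2123.5, 2118.5 and 2434. The log2 difference of P21_8 from P21_3 was -0.34 ± 0.11 (SD, n = 3), and in genes -0.12 ± 0.08 (SD, n = 3). The mitochondrial medians were 4.81%, 5.23% and 5.72% in P21_3 and 3.33%, 3.28% and 3.41% in P21_8, a difference of -1.92 ± 0.412 percentage points (SD, n = 3). The medians of P21_8 lay closer together across libraries than those of P21_3.

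The clusters overlapped on this measure. Of P21_8 cells, 82.4%, 92.7% and 91.6% in libraries 6, 7 and 8 lay below the median mitochondrial share of P21_3. Of P21_3 cells, 9.87%, 3.33% and 3.28% lay below the median of P21_8. The authors regressed the mitochondrial share and UMIs out before clustering. Whether the split still followed either value was not tested.

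The clusters were also compared within a narrower range of UMIs, chosen after the data were seen. Among cells with 2000 to 3000 UMIs, the medians were 4.96%, 5.30% and 5.69% in P21_3 and 3.46%, 3.72% and 3.48% in P21_8, over 154, 300 and 157 and over 12, 36 and 81 cells. The difference was -1.76 ± 0.392 percentage points (SD, n = 3). Within this range P21_8 cells still held fewer UMIs, by a log2 difference of -0.11 ± 0.06 (SD, n = 3). In genes the direction turned, with a log2 difference among these cells of 0.05 ± 0.05 (SD, n = 3) and P21_8 higher in each library. P21_8 was also the more varied cluster in UMIs, with quartile ratios of 1.55, 1.49 and 1.67 against 1.29, 1.30 and 1.31.

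**Figure D3:**
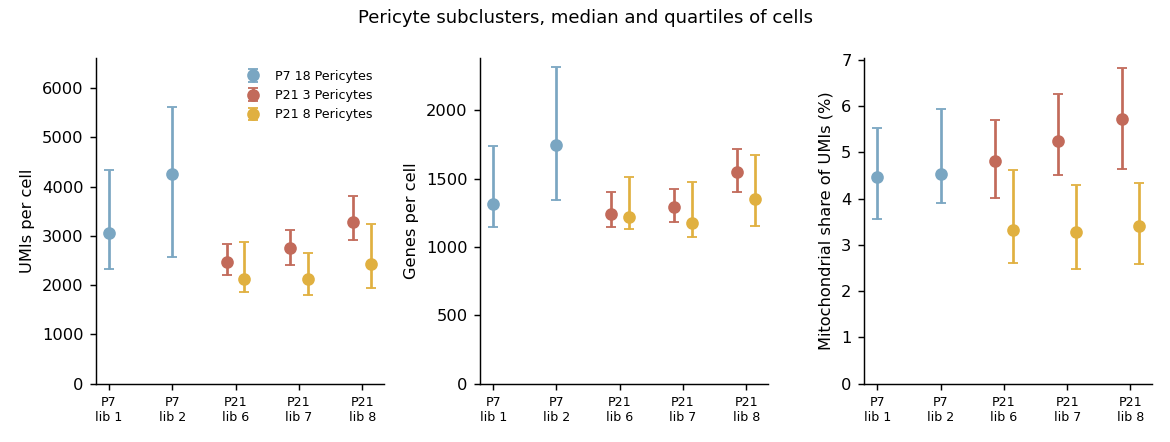
UMIs per cell, genes per cell and mitochondrial share (percent) of the pericyte clusters P7_18, P21_3 and P21_8 in each library, as the median (point) and quartiles of cells (bars). P21_8 lies below P21_3 in all 3 libraries in each panel, at 3.28% to 3.41% against 4.81% to 5.72% for the mitochondrial share.

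The next comparison set pericytes beside astrocytes, the glia whose endfeet cover the same capillaries, in the same library. Pericytes had the higher median of UMIs in 5 of 5 libraries. The astrocyte medians were 2779.5 and 2878 in libraries 1 and 2 and 2386, 2375 and 2385 in libraries 6, 7 and 8. The ratio of pericytes to astrocytes was 1.10, 1.48, 1.02, 1.13 and 1.32 in that order, so it was close to even in library 6 and largest in library 2. The mean log2 difference was 0.26 ± 0.22 (SD, n = 5), and the exact sign-flip permutation test gave p = 0.063 (adjusted p = 0.0938), the smallest it can give with 5 libraries. That test counts the P7 libraries as separate, which was not shown. With the P7 libraries counted as 1 the difference was 0.24. Against all other cells of the library in place of astrocytes, the difference turned to -0.22.

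Genes per cell, unlike UMIs, were not higher in pericytes in every library. The log2 difference from astrocytes was 0.09 ± 0.18 (SD, n = 5), with pericytes higher in 3 of 5 libraries (exact sign-flip permutation p = 0.375, adjusted p = 0.375). Among cells with 2000 to 3000 UMIs, the difference was -0.01 ± 0.09 (SD, n = 4) and 2 of 4 libraries lay above 0, P7 library 2 being left out for its 9 pericytes in that range. UMIs were not matched there. Pericyte medians were 2430, 2427, 2558 and 2604 UMIs in libraries 1, 6, 7 and 8, against 2358.5, 2408, 2353.5 and 2333.5 in astrocytes. The libraries above 0 were 7 and 8.

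Pericytes had a lower median mitochondrial share than astrocytes in every library. The gap was small at P7 and wider at P21. The astrocyte medians were 4.67% and 4.72% at P7 in libraries 1 and 2, and 6.82%, 7.65% and 7.56% at P21 in libraries 6, 7 and 8. On average the astrocyte medians were 2.64 percentage points higher at P21 than at P7, and the pericyte medians 0.452 higher. Pericytes stood -0.209 and -0.182 percentage points from astrocytes at P7, and -2.15, -2.66 and -2.36 at P21. The means were -0.196 ± 0.0191 (SD, n = 2) and -2.39 ± 0.253 (SD, n = 3), with no overlap between the ages. Over all 5 libraries the difference was -1.51 ± 1.21 (SD, n = 5; exact sign-flip permutation p = 0.063, adjusted p = 0.0938). It was -1.84 with the P7 libraries, not shown to be separate pools, counted as 1.

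The change in that gap with age, -2.19 percentage points, gave the smallest exact permutation p these library numbers allow (p = 0.1, adjusted p = 0.3). It was -2.31 to -2.06 when each library was left out in turn, -1.67 among cells with at least 1500 genes, -2.85 with equal weight per cluster and -3.81 with P21_8 alone. With only cells of under 5% mitochondrial share kept, it was -0.566 with 1 P21 library left, and the mean pericyte difference from astrocytes over the 3 libraries left was -0.061. The astrocyte medians of libraries 6 and 7 rest on 50 and 35 cells. Cells above 9% mitochondrial share, close to the authors' limit, made up 21.2% of P21 astrocytes against 2.10% of P21 pericytes, and 0 of 84 P7 pericytes, and the part of that limit in the gap was not tested. The age difference of the contrast did not pass the threshold in UMIs (log2 -0.14, exact permutation p = 0.6) or genes (log2 -0.01, exact permutation p = 1).

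The same contrasts were made with microglia, the macrophages of the brain tissue, which were annotated only at P21. The microglial medians were 2295.5, 2256 and 2271.5 UMIs in libraries 6, 7 and 8, and their mitochondrial medians were 1.71%, 1.66% and 1.72%. Pericytes lay above microglia in 3 of 3 libraries on each measure, with a log2 difference of 0.27 ± 0.19 (SD, n = 3) in UMIs and 0.23 ± 0.13 in genes. Without library 8 the UMI difference was 0.17, and among cells with at least 1500 genes it was -0.028. The gene difference among those cells was 0.0058. Cells under 1100 genes, close to the authors' minimum, made up 35.4% of microglia and 10.6% of P21 pericytes. The part of that minimum in these differences was not tested. In the mitochondrial share the difference was 2.96, 3.33 and 3.48 percentage points, a mean of 3.26 ± 0.269 (SD, n = 3). With 3 libraries the smallest exact sign-flip permutation p is 0.25, the value each of the 3 measures gave.

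The gene difference from microglia was smaller within a narrower range of UMIs. Among cells with 2000 to 3000 UMIs the log2 difference in genes was 0.11, 0.13 and 0.18 in libraries 6, 7 and 8, a mean of 0.14 ± 0.04 (SD, n = 3; exact sign-flip permutation p = 0.25, adjusted p = 0.75). Pericytes still held more UMIs within this range, with medians of 2427, 2558 and 2604 against 2346.5, 2312.5 and 2300 in microglia, so UMIs were not matched. In cells with 3000 to 4000 UMIs the log2 difference in genes was 0.073.

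The P21 pericyte clusters differed in where they stood beside these types. P21_3 differed from astrocytes by 0.24 ± 0.21 and from microglia by 0.31 ± 0.21 on the log2 scale of UMIs, and P21_8 by -0.10 ± 0.11 and -0.03 ± 0.12 (SD, n = 3 each). In the mitochondrial share, P21_3 stood -2.09 ± 0.295 percentage points from astrocytes and P21_8 stood -4.00 ± 0.459. From microglia the differences were 3.56 ± 0.446 and 1.64 ± 0.0437. Both pericyte clusters thus lay between microglia and astrocytes in mitochondrial share. In UMIs, P21_8 differed from either type by less than the spread between libraries.

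**Figure D4:**
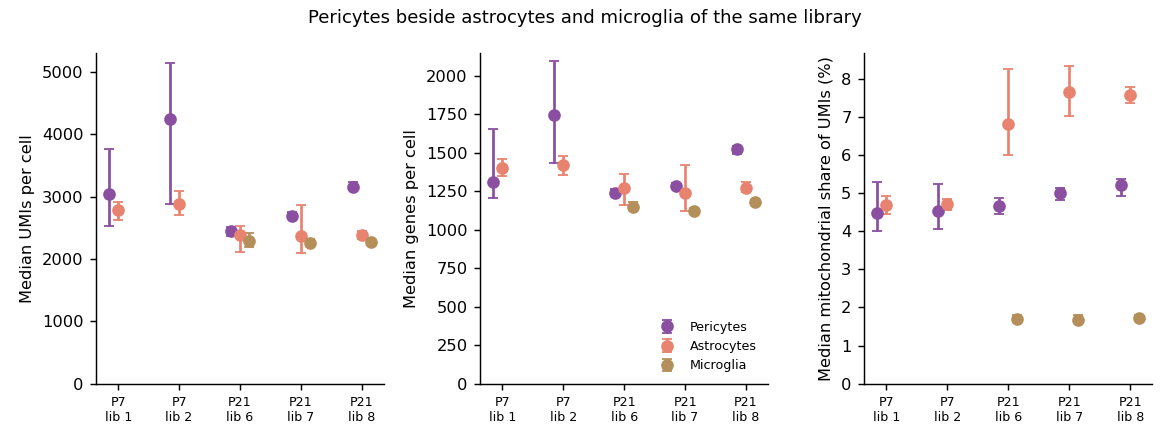
Median UMIs per cell, genes per cell and mitochondrial share (percent) of pericytes, astrocytes and, at P21, microglia in each library, with 95% intervals from order statistics as bars. At P21 the mitochondrial medians stand at 4.67% to 5.20% in pericytes, 6.82% to 7.65% in astrocytes and 1.66% to 1.72% in microglia.

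Pericyte depth varied among the P21 libraries. The ratio of the highest to the lowest P21 library median of UMIs was 1.29 in pericytes, 1.33 in P21_3 and 1.15 in P21_8, against 1.005 in astrocytes and 1.02 in microglia. The pericyte intervals of libraries 6, 7 and 8 did not overlap. Library 8, where the low-UMI cluster P21_8 took the largest share of pericytes, had the highest pericyte median.

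Among all types with at least 20 cells in a library, pericytes ranked in the lower part in UMIs and genes, and at P21 stood higher in the order by mitochondrial share than by UMIs. By UMIs they ranked 11 of 13 and 9 of 13 from the highest in P7 libraries 1 and 2, and 9 of 12, 6 of 9 and 9 of 12 in P21 libraries 6, 7 and 8. By genes the ranks were 13, 10, 11, 6 and 9. By mitochondrial share they were 11 and 10 at P7, and 5, 3 and 3 at P21. The types present differed between ages, so these ranks describe each library on its own.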

How the data were processed

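Reads were aligned by the authors with Cell Ranger 3.0.1 (mm10). They joined all libraries after downsampling to even coverage, kept cells by limits on genes, UMIs and mitochondrial share, removed outlier clusters, regressed out UMIs and mitochondrial share, and clustered and named cells within each age. The deposited table gives UMIs per cell as counts, genes per cell as whole numbers and the mitochondrial share as a fraction, here in percent. The lowest number of genes was 1001, the highest UMIs 14997 and the highest mitochondrial share 9.99611%. Libraries held 7751963 to 58553300 UMIs in the cells of the table.

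A library is the number after the barcode, which holds cells of 1 age. Which sample of that age it is was not assigned. Medians per library were compared, as log2 values for UMIs and genes, by two-sided exact permutation of ages or exact sign flips of the differences within libraries, with Benjamini-Hochberg adjustment over 3 measures, and by limma across types (at least 20 cells per library). Types with fewer than 20 cells in a library, or 10 in a UMI range, were left out. Pericytes, their clusters, astrocytes and microglia are named. These members, types and tests were chosen with earlier results of these data known. For the mitochondrial share limma used 1 spread for all types. The tests were tested on simulated data. Alternatives were means, stricter cell limits (1500 genes, 5% mitochondrial share), other denominators and reference cells, and equal cluster weights. Further alternatives were another UMI range (3000 to 4000), the P7 libraries counted as 1 and leaving out each library. Each P21 cluster alone, cells with at most 8000 UMIs and clusters at 2000 to 3000 UMIs were chosen after seeing the data. Python 3.11.15, numpy 2.4.6, pandas 2.3.3, scipy 1.17.1, matplotlib 3.10.9, R 4.3.3 and limma 3.58.1 were used.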

Additional observations from a re-analysis of the deposited data

How the results depend on the processing

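Of 184 values from alternatives to 16 results, 166 kept their direction and side of the threshold and 18 reversed, in 9 results. Of those that kept their direction, 52 moved by over 1.5 times in the same unit. The cause was not tested. No exact test passed 0.05, the lowest adjusted p being 0.0938, so stability of a call could not be judged.

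In means over cells, the age difference of the genes contrast with astrocytes was 0.0063 (log2). With at least 1500 genes per cell it was 0.15, the genes difference from astrocytes was -0.060 and the UMI difference from microglia -0.028. With equal weight per cluster the mitochondrial share at P21 was -0.206 percentage points from P7. With all other cells in place of astrocytes, the differences were -0.22 in UMIs, -0.36 in genes and 0.499 percentage points in mitochondrial share. With P21_3 alone the age difference of the genes contrast was 0.0035, and with at most 8000 UMIs 0.0095. With P21_8 alone the mitochondrial share was -1.16 percentage points from P7 and the UMI difference from microglia -0.034.

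Leaving out 1 library gave -0.38 to 0.035 for genes at P21 against P7 (above 0 without library 2), -0.36 to 0.073 for the age difference of the UMI contrast with astrocytes (above 0 without library 2), -0.20 to 0.19 for that of genes (above 0 without libraries 2, 6 and 7 in turn) and -0.051 to 0.018 for genes at 2000 to 3000 UMIs against astrocytes (above 0 without library 6). With a mitochondrial share under 5%, 1 P21 library remained for the astrocyte contrast. No paired analysis was possible because, between ages, the library numbers in the table carry no replicate number of the labels, while contrasts between types were paired within libraries. The 84 P7 pericytes limit what the P7 medians can show.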
